A study of Mus musculus with 6 samples.

Results

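Cytochrome P450 genes were followed in bulk RNA-seq libraries of hand-picked mouse pancreatic islets. They were taken by name, as every gene whose symbol is Cyp followed by a family number, a subfamily letter and a member number, leaving out the retinoic acid hydroxylases Cyp26a1 and Cyp26b1, which gave 89 of the 23284 genes in the files. Symbols with another ending, such as Cyp51, pseudogenes and lettered pairs such as Cyp4a12a, did not meet that pattern. Of the 89 genes, 23 had enough counts in the 6 libraries to be tested, 34 had some counts but too few, and 32 had 0 counts in every library.

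The knockout group was Neurod1-floxed/floxed; Rip-Cre+ and the control group was Neurod1-floxed/floxed with no Cre, both given as strain C56BL/J and both 12 weeks old. Neurod1 is a bHLH (basic helix-loop-helix) activator found in endocrine cells, and Rip-Cre is a Cre recombinase under a rat insulin promoter, so deletion was aimed at beta cells, while alpha, delta and non-endocrine cells of the islet were not targeted. All 6 libraries carried the floxed alleles, and no library carried Cre without them, so an effect of Cre itself and one of the deletion cannot be told apart. There were 3 libraries per genotype, with the numbers 4, 5 and 6 for knockout and 7, 10 and 16 for control, with 12206393 to 20412435 counts each. Whether a library stands for 1 animal is not in the labels, so the p-values measure the spread between these libraries, which may be technical in part. Neurod1 had 463, 444 and 389 counts in knockout libraries 4, 5 and 6, against 3839, 3614 and 2049 counts in control libraries 7, 10 and 16 (log2 fold change -2.53, SE 0.13, adjusted p = 1.74e-05 by edgeR's quasi-likelihood test).

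P450 enzymes are heme proteins that insert 1 oxygen atom from molecular oxygen into lipids, steroids, vitamins and foreign compounds. Those of the endoplasmic reticulum take their electrons from the flavoprotein Por, at times with cytochrome b5, and those of mitochondria take them from ferredoxin and its reductase. The Cyp1, Cyp2 and Cyp3 families hold many enzymes of drug and pollutant metabolism that are known best from the liver, the Cyp4 family holds fatty acid and eicosanoid hydroxylases, and most of the higher-numbered families act on cholesterol, bile acids, steroid hormones, vitamin D or retinoic acid. Islets are not a main site of drug metabolism.

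The Cyp2a, Cyp2b, Cyp2c and Cyp3a subfamilies, which are known from the liver, had few or no counts in these islets. None of the 15 Cyp2c genes, which encode arachidonic acid epoxygenases and drug hydroxylases, could be tested, and 10 of them had 0 counts in all 6 libraries. The same held for the 7 Cyp3a genes, of which 5 were at 0, for the 5 Cyp2b genes, of which 4 were at 0, and for the 4 Cyp2a genes, of which 1 was at 0. Cyp7a1, the rate-limiting enzyme of bile acid synthesis, and Cyp1a2 also had no count. A count of 0 allows up to 0.147 to 0.241 counts per 1e+06 (CPM), depending on the depth of the library, and this limit covers counting error only. Between 39 and 49 of the 89 genes had at least 1 count in a given library.

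Most of the 23 tested genes came from 2 families, which also hold most of the 89 genes. The Cyp4 family had 8 of its 15 genes tested and the Cyp2 family 7 of 48, while the Cyp4a genes, known as targets of the receptor Ppara in liver, had counts in each of the 4 members but too few to test. The other 8 tested genes were single members of the Cyp1, Cyp7, Cyp17, Cyp20, Cyp39 and Cyp46 families and both members of the Cyp27 family. Over the 6 libraries, 7 genes averaged at least 10 CPM (scaled by TMM factors), 14 averaged 1 to 10 CPM and 2 tested genes averaged less than 1 CPM. The summed level of all 89 genes was 196, 190 and 216 CPM in knockout libraries 4, 5 and 6, against 245, 238 and 231 CPM in control libraries 7, 10 and 16. All 3 knockout sums lay below all 3 control sums, with means of 201 and 238 CPM. Most of this gap lay in Cyp4v3 (22.9 CPM in knockout and 48.2 CPM in control islets) and Cyp4f39 (0.676 and 8.74 CPM). It is thus not a fall of the family as a whole, and the sum was not tested. In each library 6 genes (Cyp4v3, Cyp20a1, Cyp4f13, Cyp2j6, Cyp2d22 and Cyp4f16) made up 61.1% to 67.1% of the sum.

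**Figure D1:**
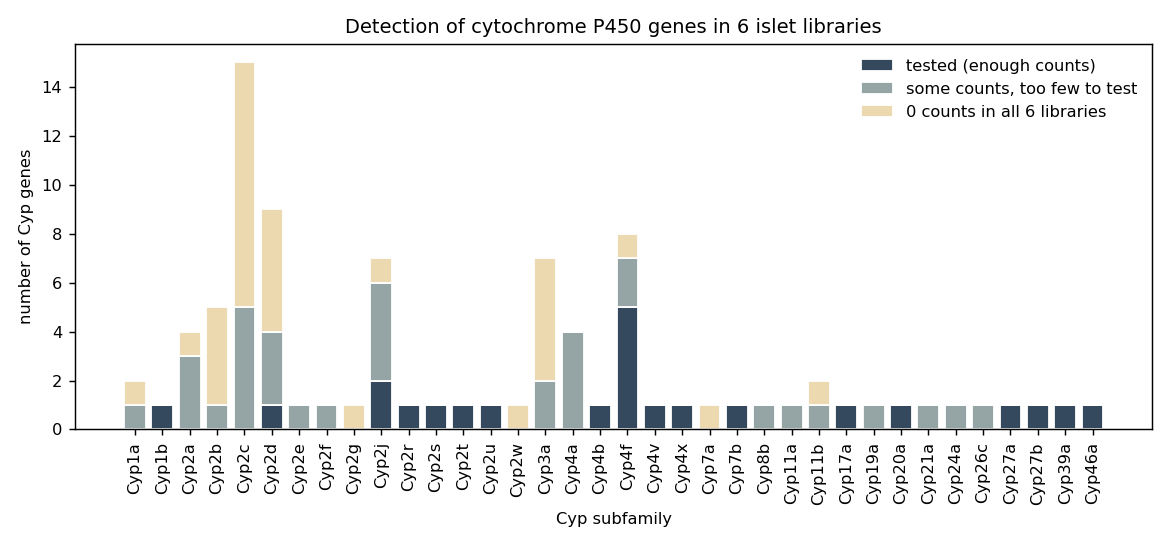
Number of Cyp genes (y axis) per subfamily (x axis), stacked by whether they had enough counts to be tested, some counts but too few, or 0 counts in all 6 libraries. The Cyp4f subfamily had 5 of 8 members tested, while the Cyp2c subfamily had 0 of 15.

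To compare levels between genes, CPM was divided by the exon length of each gene in kilobases, from the GENCODE M21 annotation of GRCm38, which is not the build of the files. On this per-length scale Cyp20a1, a P450 with no settled substrate, was the highest member in both genotypes, at 15.9 ± 1.24 CPM per kb in knockout islets and 15.2 ± 0.766 CPM per kb in control islets (SD, n = 3 each). In control islets Cyp4v3 followed with a level of 12.7 ± 0.681 CPM per kb and Cyp4f13 with a level of 12.3 ± 0.576 CPM per kb (SD, n = 3 each), and their ranges over libraries overlapped. Cyp2d22, at 7.29 ± 0.182 CPM per kb, came next, and the ranges of Cyp4f16 (5.31 ± 0.581) and Cyp2j6 (4.73 ± 0.134), the fifth and the sixth, overlapped as well. In knockout islets the level of Cyp2j6 (6.76 ± 0.660 CPM per kb) stood above those of Cyp4v3 (6.01 ± 0.293) and Cyp2d22 (5.09 ± 0.610), whereas in control islets it was below both. The knockout ranges of Cyp2j6 and Cyp4v3 overlapped.

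Between the genotypes, 2 of the 23 tested P450 genes were higher in the knockout, 3 were lower and 18 did not pass an adjusted p of 0.05. In bulk libraries fewer cells of a type and less RNA per cell cannot be told apart, here and in all that follows. The calls were Cyp2j6 and Cyp2u1 on the higher side and Cyp4f39, Cyp4v3 and Cyp2d22 on the lower side. This is 21.7% of the tested P450 genes, beside 24.4% of all 14770 genes tested (11.8% higher and 12.6% lower), so the share of calls was close to that of the transcriptome as a whole. The median log2 fold change was -0.11 over the 23 genes and -0.01 over all genes tested. In 9 of the 23 genes the CPM of the knockout and control libraries did not overlap (4 higher, 5 lower), which is 39.1%, beside 42% of all genes (19.9% higher and 22.1% lower). The number higher was 1 in place of 2 without knockout library 4, knockout library 5, control library 10 or control library 16.

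**Figure D2:**
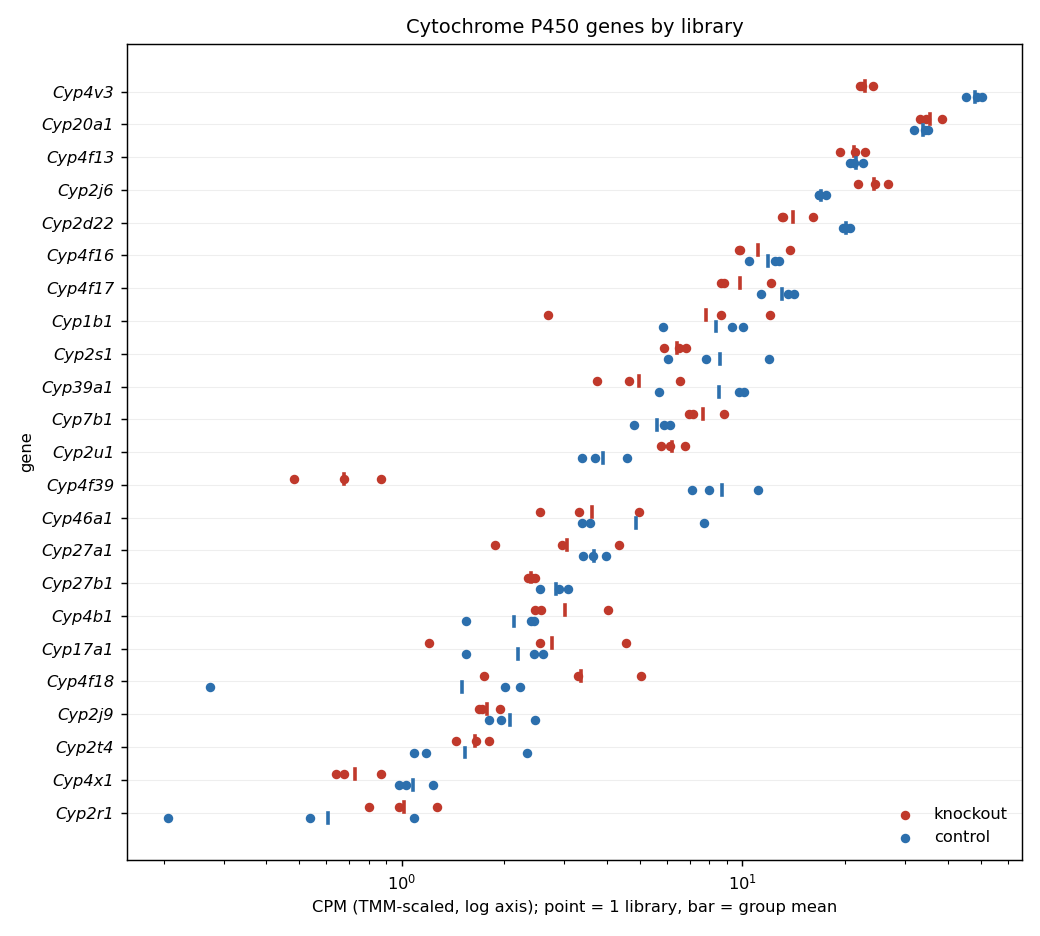
CPM (x axis, log scale, TMM-scaled) of the 23 tested P450 genes (y axis, ordered by mean level), with 1 point per library and a bar at the mean of each genotype (n = 3 each). Cyp4f39 shows the widest gap, with 0.482 to 0.871 CPM in knockout and 7.13 to 11.1 CPM in control libraries.

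**Figure D3:**
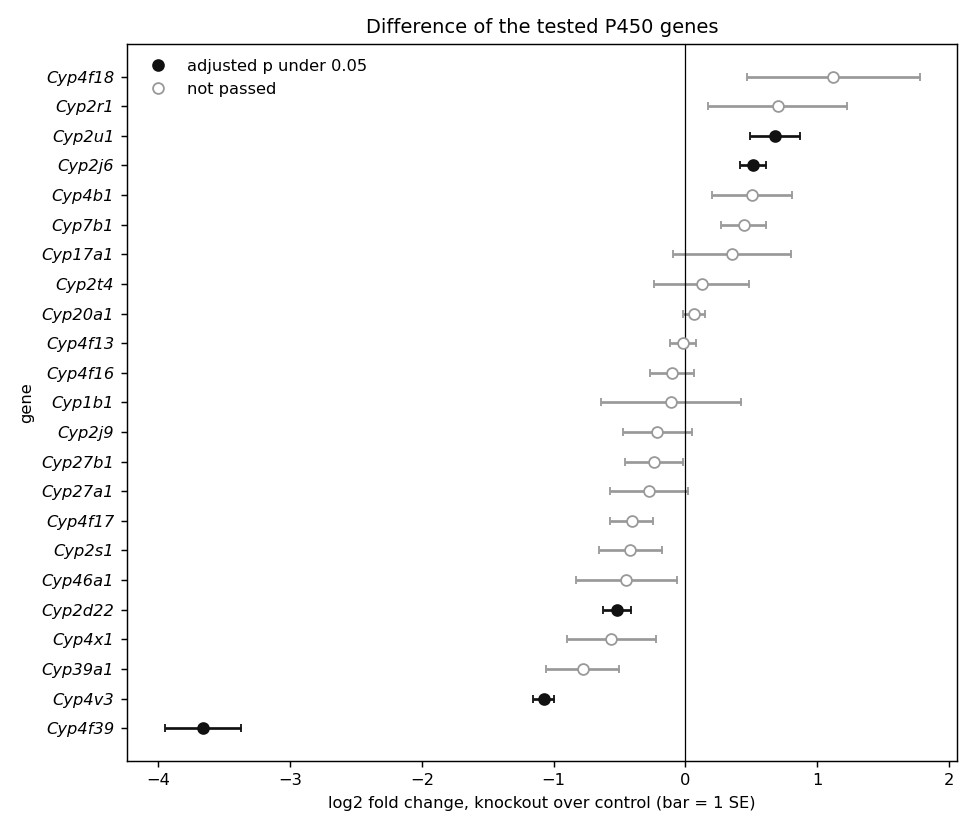
Log2 fold change of knockout over control (x axis, bar = 1 SE) for the 23 tested P450 genes (y axis). Filled points passed an adjusted p of 0.05: Cyp4f39, Cyp4v3 and Cyp2d22 below 0, Cyp2j6 and Cyp2u1 above 0.

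Cyp4f39 was the member with the largest difference. It encodes the mouse counterpart of human CYP4F22, an omega-hydroxylase of very long fatty acids that is known for the lipid barrier of the skin. Its counts were 11, 13 and 6 in knockout libraries 4, 5 and 6, against 215, 163 and 104 counts in control libraries 7, 10 and 16. Every knockout library was far below every control library, at 0.676 ± 0.194 CPM in knockout islets and 8.74 ± 2.09 CPM in control islets (SD, n = 3 each). The gene fell 12.7-fold (log2 fold change -3.66, SE 0.29, adjusted p = 8e-05). Without any 1 library the log2 fold change stayed between -3.88 and -3.45, and the authors' deposited table lists -3.67 with an adjusted p of 5.88e-14.

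The genes beside Cyp4f39 did not show a fall of that size. On chromosome 17 it is the first of a row of Cyp4f genes, in the order Cyp4f39, Cyp4f17, Cyp4f16, Cyp4f40, Cyp4f15, Cyp4f14 and Cyp4f13 in the RefSeq gene order of GRCm38.p6 (genes that are not members left out). Cyp4f17, its direct neighbour, had 144, 129 and 151 counts in the knockout, against 274, 232 and 199 counts in the control. The CPM of the genotypes overlapped for Cyp4f17, and the log2 fold change of -0.41 (SE 0.16) did not pass (adjusted p = 0.1). It passed without knockout library 6 (-0.56, adjusted p = 0.0328).

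Cyp4f16, the next gene, had 11.1 ± 2.31 CPM in knockout islets and 11.9 ± 1.30 CPM in control islets (SD, n = 3 each), a log2 difference of -0.10 (SE 0.16) with an adjusted p of 0.691. At the far end of the row, Cyp4f13 had 21.2 ± 1.79 CPM in knockout islets and 21.5 ± 1.01 CPM in control islets (SD, n = 3 each), a log2 difference of -0.02 (SE 0.10) with an adjusted p of 0.908. Cyp4f14, Cyp4f15 and Cyp4f40 had too few counts to test, with at most 10, 1 and 0 counts in a knockout library and at most 17, 5 and 0 counts in a control library. On the other side of Cyp4f39, Pglyrp2, which encodes a peptidoglycan recognition protein, had 16, 4 and 24 counts in the knockout, against 10, 21 and 0 counts in the control, with no call (adjusted p = 0.525).

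**Figure D4:**
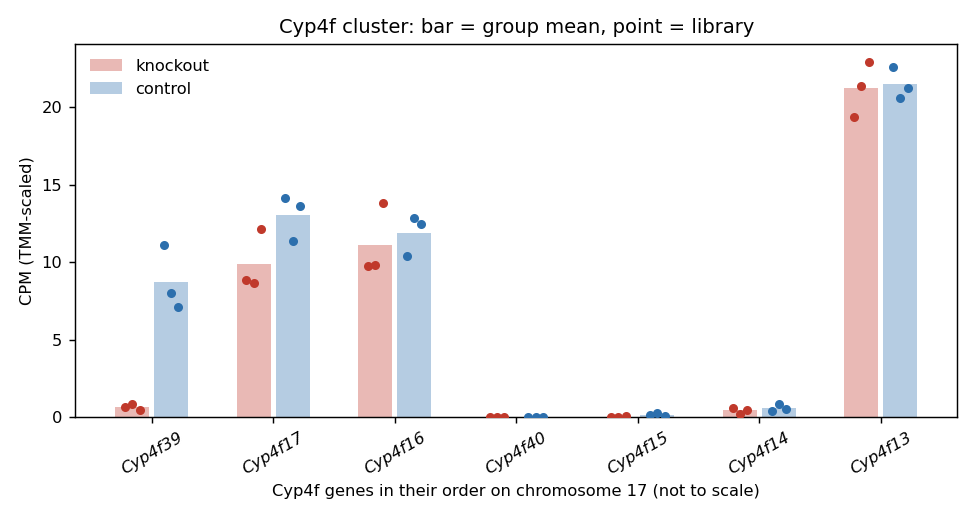
CPM (y axis, TMM-scaled) of the Cyp4f genes in their order along chromosome 17 (x axis, not to scale), with bars at the mean of the knockout and control libraries and 1 point per library. Cyp4f39 is near 0 in the knockout, while Cyp4f17, Cyp4f16 and Cyp4f13 overlap between the genotypes.

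Near copies can share reads, so the longest coding transcript of each tested gene was cut into all windows of 100 bases, the length of the reads, and each window was looked up in the GENCODE M21 transcripts of all other genes. For Cyp4f39, 0% of the windows occurred in another gene. The value was also 0% for Cyp4f13 and 0.0704% for Cyp4f17, while Cyp4f16 shared 9.71% of its windows with Cyp4f37, a gene not analysed here. In all, 13 of the 23 tested genes shared no window and the highest share was 10.4%, for Cyp2u1. That share was with 4930534D22Rik, an antisense gene that overlaps its exons, and not with a near copy. The comparison used exact matches only, on both strands.

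Cyp4v3 had the largest fall among the 7 members that averaged at least 10 CPM. It is the mouse counterpart of human CYP4V2, a fatty acid omega-hydroxylase that is mutated in Bietti crystalline dystrophy of the retina. Its counts were 365, 330 and 301 in knockout libraries 4, 5 and 6, against 946, 1028 and 661 counts in control libraries 7, 10 and 16. All 3 knockout libraries lay below all 3 control libraries, and the replicates were close, with 22.9 ± 1.11 CPM in knockout islets and 48.2 ± 2.59 CPM in control islets (SD, n = 3 each). On the log2 scale the difference was -1.08 (SE 0.08, adjusted p = 5.36e-05), a 2.11-fold fall, and it was -1.12 to -1.04 without any 1 library. Its coding neighbours on chromosome 8 were Klkb1, the plasma kallikrein gene, with 0 to 3 counts in the knockout and 0 to 5 counts in the control, and Fam149a, which did not pass (log2 fold change -0.18, SE 0.09, adjusted p = 0.173). Of the exon bases of Cyp4v3, 8.22% overlap the predicted gene Gm45753 on the same strand, so that part of its counts cannot be assigned to 1 gene.

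The other Cyp4 genes did not pass. Cyp4f18, which acts on leukotrienes in neutrophils, was the tested member with the largest difference that did not pass (log2 fold change 1.12, SE 0.66, adjusted p = 0.26). Its counts were 82, 26 and 41 in knockout libraries 4, 5 and 6, against 43, 41 and 4 counts in control libraries 7, 10 and 16, so the genotypes overlapped and control library 16 was the lowest. Of 9 leukocyte markers, 0 were higher and 1 lower in the knockout, and their summed level was 254, 108 and 321 CPM in the knockout and 150, 185 and 97.5 CPM in the control, where control library 16 was again the lowest. The part of such cells in the Cyp4f18 values was not tested. Cyp4b1, a hydroxylase of fatty acids and foreign compounds, had 3.01 ± 0.872 CPM in knockout islets and 2.13 ± 0.507 CPM in control islets (SD, n = 3 each; adjusted p = 0.263), and Cyp4x1 had 0.729 ± 0.124 and 1.08 ± 0.137 CPM in knockout and control (adjusted p = 0.26). For both genes the libraries of the genotypes did not overlap in CPM, though for Cyp4b1 the nearest values were 2.45 CPM in each genotype.

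Among the Cyp2 genes, Cyp2j6 was higher in the knockout. The Cyp2j subfamily is known for epoxidation of arachidonic and linoleic acid. Cyp2j6 had 357, 398 and 306 counts in knockout libraries 4, 5 and 6, against 341, 343 and 244 counts in control libraries 7, 10 and 16. Scaled by depth this was 24.4 ± 2.38 CPM in knockout islets and 17.05 ± 0.481 CPM in control islets (SD, n = 3 each), with every knockout library above every control library. It rose 1.43-fold (log2 fold change 0.51, SE 0.10, adjusted p = 0.00698), and 0.44 to 0.61 without any 1 library. Its neighbours in the Cyp2j cluster on chromosome 4 were Cyp2j9, which had 1.78 ± 0.140 CPM in knockout islets and 2.08 ± 0.346 CPM in control islets (SD, n = 3 each), a log2 difference of -0.21 (SE 0.26) with an adjusted p of 0.595, and Cyp2j8, which had at most 2 counts in a library. No window of Cyp2j6 was shared with another gene.

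Cyp2u1, an omega-hydroxylase of long fatty acids, was higher too, at a lower level. It had 100, 101 and 72 counts in the knockout, against 89, 69 and 54 counts in the control, or 6.23 ± 0.498 CPM and 3.89 ± 0.628 CPM in knockout and control (SD, n = 3 each). The groups did not overlap in CPM, and the log2 fold change was 0.68 (SE 0.19, adjusted p = 0.0314). This call was near the threshold: it was lost without knockout library 4 (adjusted p = 0.0607), knockout library 5 (0.0918), control library 10 (0.114) or control library 16 (0.0842), and the authors' deposited table lists an adjusted p of 0.0801. An antisense gene, 4930534D22Rik, covers 11.8% of the exon bases of Cyp2u1, and the sources used here do not give the use of strand in counting. Both coding neighbours of Cyp2u1 on chromosome 3 were also higher in the knockout, namely Hadh, a dehydrogenase of fatty acid oxidation (log2 fold change 0.73, SE 0.08, adjusted p = 5.26e-04), and Sgms2, a sphingomyelin synthase gene (log2 fold change 0.25, SE 0.08, adjusted p = 0.0461). The call of Sgms2 was lost without any 1 library except control library 10. It was also lost with upper-quartile factors, with total counts and no factors, with limma-voom and with acinar or endothelial level as covariate. In all, it passed in 5 of 15 alternatives.

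Cyp2d22, seen as the mouse gene nearest to the human drug hydroxylase CYP2D6, was lower in the knockout. Its counts were 213, 197 and 200 in knockout libraries 4, 5 and 6, against 391, 402 and 302 counts in control libraries 7, 10 and 16. The genotypes did not overlap, with 14.1 ± 1.69 CPM in knockout islets and 20.2 ± 0.503 CPM in control islets (SD, n = 3 each), a log2 difference of -0.52 (SE 0.11) with an adjusted p of 0.00948. It was the only one of the 9 Cyp2d genes to be tested, and 5 of the others had 0 counts. Its coding neighbour Ndufa6, a subunit of respiratory complex I, did not pass (log2 fold change -0.12, SE 0.09, adjusted p = 0.383).

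Further Cyp2 genes overlapped between the genotypes. Cyp2s1, which is known from epithelia outside the liver, had 6.41 ± 0.472 CPM in knockout islets and 8.60 ± 3.02 CPM in control islets (SD, n = 3 each; adjusted p = 0.245), with control library 16 highest at 11.9 CPM. Cyp2r1, a vitamin D hydroxylase, had 16, 19 and 10 counts in the knockout, against 21, 11 and 3 counts in the control (adjusted p = 0.371). Cyp2t4 had 1.64 ± 0.182 CPM in knockout islets and 1.53 ± 0.695 CPM in control islets (SD, n = 3 each; adjusted p = 0.833). Cyp2e1, the ethanol-oxidising enzyme of liver, was not tested, and had 4, 1 and 7 counts in the knockout, against 9, 8 and 30 counts in the control.

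Neurod1 belongs to the factors that bind the E-box, so promoters were looked at. Of the genes that passed, Cyp2d22 and Cyp2u1 had no promoter in the RefSeq set used here. The promoters of the other 3, and of Cyp4f13 as a member of the Cyp4f row that did not pass, are shown. They are the 250 bases before the annotated start, from RefSeq for GRCm38.p6, written on the strand of the gene, with each CANNTG in capitals. The positions are chr17:32452473-32452722 (plus strand) for Cyp4f39, chr8:45333164-45333413 (minus strand) for Cyp4v3, chr4:96553652-96553901 (minus strand) for Cyp2j6 and chr17:32947362-32947611 (minus strand) for Cyp4f13.
Cyp4f39: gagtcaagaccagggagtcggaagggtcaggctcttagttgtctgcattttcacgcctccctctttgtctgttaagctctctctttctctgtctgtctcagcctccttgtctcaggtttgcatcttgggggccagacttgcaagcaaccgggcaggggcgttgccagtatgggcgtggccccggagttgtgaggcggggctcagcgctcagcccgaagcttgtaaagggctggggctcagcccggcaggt
Cyp4v3: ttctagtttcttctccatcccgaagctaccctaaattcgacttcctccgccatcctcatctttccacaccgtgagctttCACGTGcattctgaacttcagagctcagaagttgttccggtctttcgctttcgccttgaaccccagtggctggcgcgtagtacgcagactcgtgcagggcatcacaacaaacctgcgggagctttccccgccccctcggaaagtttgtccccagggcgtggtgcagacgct
Cyp2j6: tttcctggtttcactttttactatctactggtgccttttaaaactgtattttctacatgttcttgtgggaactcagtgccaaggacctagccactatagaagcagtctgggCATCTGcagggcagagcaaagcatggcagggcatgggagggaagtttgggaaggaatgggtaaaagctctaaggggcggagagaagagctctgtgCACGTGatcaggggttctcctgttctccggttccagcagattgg
Cyp4f13: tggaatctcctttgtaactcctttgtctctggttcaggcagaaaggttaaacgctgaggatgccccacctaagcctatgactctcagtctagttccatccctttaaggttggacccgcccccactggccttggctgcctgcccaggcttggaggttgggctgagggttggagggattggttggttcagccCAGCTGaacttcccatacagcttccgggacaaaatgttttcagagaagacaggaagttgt

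The motif CANNTG reads the same on both strands and overlapping matches were allowed. It was found 0 times in the Cyp4f39 window, once in that of Cyp4v3 (CACGTG), 2 times in that of Cyp2j6 (CATCTG and CACGTG) and once in that of Cyp4f13 (CAGCTG). Of 32536 promoter windows of the same length 66.2% held a CANNTG, and 25.5% held CAGATG or CAGCTG on either strand, forms of the E-box that bHLH factors of this class are known to bind. Of the 16 tested P450 genes with a promoter in the RefSeq table, 11 held a CANNTG and 6 held CAGATG or CAGCTG. These are matches of letters only.

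P450 genes of cholesterol and oxysterol breakdown had no call. Cyp39a1, an oxysterol hydroxylase of bile acid synthesis, had 61, 98 and 58 counts in knockout libraries 4, 5 and 6, against 189, 206 and 83 counts in control libraries 7, 10 and 16. The genotypes overlapped, because control library 16, at 5.69 CPM, lay below knockout library 5, at 6.56 CPM, and the log2 fold change of -0.78 (SE 0.28) did not pass (adjusted p = 0.0749). Without control library 16 it was -0.99 (adjusted p = 0.0286), and without knockout library 5 it was -1.03 (adjusted p = 0.0422). The summed level of 15 acinar markers was 4571, 13202 and 9704 CPM in knockout libraries 4, 5 and 6, against 44973, 37654 and 12577 CPM in control libraries 7, 10 and 16, so control library 16 was the lowest control and knockout library 5 the highest knockout in both measures. With acinar level as covariate the log2 fold change of Cyp39a1 was 0.09 (adjusted p = 0.854), and the part of acinar RNA in the Cyp39a1 values was not tested further.

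Cyp7b1, the other oxysterol hydroxylase, had 117, 104 and 110 counts in the knockout, against 119, 120 and 70 counts in the control. Scaled by depth the groups did not overlap, with 7.66 ± 1.02 CPM in knockout islets and 5.61 ± 0.712 CPM in control islets (SD, n = 3 each), but the log2 fold change of 0.44 (SE 0.17) did not pass (adjusted p = 0.0959). Cyp46a1, the cholesterol hydroxylase of neurons, had 3.61 ± 1.24 CPM in knockout islets and 4.88 ± 2.44 CPM in control islets (SD, n = 3 each; adjusted p = 0.437), with control library 7 highest at 7.69 CPM. Cyp27a1, the mitochondrial sterol hydroxylase, had 3.05 ± 1.23 CPM in knockout islets and 3.67 ± 0.283 CPM in control islets (SD, n = 3 each; adjusted p = 0.54). Cyp8b1, a bile acid enzyme of liver, had 0 counts in each knockout library, against 0, 4 and 1 counts in control libraries 7, 10 and 16.

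Of the vitamin D enzymes, Cyp27b1, which makes the active hormone, had 40, 35 and 30 counts in the knockout, against 56, 52 and 45 counts in the control. The groups did not overlap in CPM, but the difference did not pass (log2 fold change -0.24, SE 0.22, adjusted p = 0.473). Cyp24a1, which breaks the hormone down, had 0 counts in all libraries except control library 16, which had 1. Vdr, the receptor of the hormone, had a mean level of 310 CPM in knockout islets and 339 CPM in control islets and did not pass (adjusted p = 0.577).

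Steroid hormone synthesis was represented by few reads. Cyp17a1, which leads from progestins to androgens, had 74, 38 and 15 counts in knockout libraries 4, 5 and 6, against 30, 50 and 38 counts in control libraries 7, 10 and 16. The groups overlapped and knockout library 6 was lowest (log2 fold change 0.35, SE 0.45, adjusted p = 0.608). Cyp11a1, the side-chain cleavage enzyme of the first step, was not tested, with 21, 6 and 2 counts in the knockout, against 11, 6 and 8 counts in the control. Knockout library 4 was thus highest and knockout library 6 was at the bottom of the knockout group for both genes. Cyp21a1 had 2 to 3 counts in the knockout and 3 to 8 counts in the control, Cyp11b1 at most 1 and 2 counts, Cyp19a1, the aromatase, at most 1 count in each genotype, and Cyp11b2 had 0 counts in all libraries. Of 4 adrenal cortex markers, Star, the cholesterol carrier of steroid-making mitochondria, had 97 to 151 counts in the knockout and 129 to 174 counts in the control and did not pass (adjusted p = 0.8). The others were not tested: Hsd3b1 had 3 to 10 counts in the knockout and 3 to 11 counts in the control, Nr5a1 had 1 to 3 and 2 to 5 counts in knockout and control, and the corticotropin receptor Mc2r had 1 count, in control library 16. The summed level of the 4 markers was 8.57 to 10.1 CPM in knockout and 9.26 to 9.46 CPM in control libraries, and their part in the values of the steroid genes was not tested.

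Cyp1b1, an oxidase of oestrogens and polycyclic compounds that is induced through the receptor Ahr, varied widely within each genotype. Its counts were 196, 40 and 108 in knockout libraries 4, 5 and 6, against 194, 190 and 85 counts in control libraries 7, 10 and 16. The groups overlapped throughout, with 7.79 ± 4.73 CPM in knockout islets and 8.38 ± 2.24 CPM in control islets (SD, n = 3 each), a log2 difference of -0.11 (SE 0.53) with an adjusted p of 0.905. The related Ahr target Cyp1a1 had at most 2 counts in a library of either genotype. Cyp20a1 overlapped between the genotypes, at 35.4 ± 2.76 CPM in knockout islets and 33.8 ± 1.70 CPM in control islets (SD, n = 3 each), a log2 difference of 0.07 (SE 0.08) with an adjusted p of 0.601.

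Of the 34 genes with counts but no test, 18 had no more than 3 counts in any library and 6 had more than 10 in at least 1 library. Cyp26c1, a retinoic acid hydroxylase, was detected mainly in the knockout, with 2, 11 and 4 counts in knockout libraries 4, 5 and 6, against 0, 0 and 2 counts in control libraries 7, 10 and 16. In a fit with no filter on low counts it did not pass (adjusted p = 0.074). Cyp2j5 had 7, 3 and 6 counts in the knockout, against 14, 12 and 11 counts in the control, and it did not pass in that fit either. Cyp3a13 had 4 to 10 counts in the knockout and 9 to 13 counts in the control, and was the most abundant Cyp3 gene.

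Genes that serve P450 enzymes were taken as 5 lists, whose members were chosen for their roles. Of 67 tested members, 9 were higher and 10 lower in the knockout, beside 11.8% and 12.6% of all genes, and their median log2 fold change was -0.02. Of the 9 tested redox partners, 3 were higher, 1 was lower and 5 did not pass (median log2 fold change 0.0054). Cyb5a, a further cytochrome b5 gene on that list of 10, was not found under that symbol, so its level is not known here. Cyb5b, the cytochrome b5 of the outer mitochondrial membrane, had 10457, 10817 and 7318 counts in the knockout, against 5454, 5245 and 4025 counts in the control (log2 fold change 1.26, SE 0.10, adjusted p = 7.19e-05). Cyb5r3, the reductase that passes electrons to cytochrome b5, had 2082, 2160 and 1556 counts in the knockout, against 5371, 5477 and 4245 counts in the control (log2 fold change -1.07, SE 0.08, adjusted p = 6.37e-05). For each of the pair all 3 knockout libraries lay on one side of all 3 control libraries, in opposite directions.

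Por, the electron donor of the P450 enzymes of the endoplasmic reticulum, was higher by less. It had 332 ± 39.98 CPM in knockout islets and 243 ± 34.2 CPM in control islets (SD, n = 3 each), a log2 difference of 0.45 (SE 0.12) with an adjusted p of 0.0315. The heme-binding P450 partner Pgrmc1 was higher by 0.32 on the log2 scale (SE 0.08, adjusted p = 0.0161). Without control library 7 or control library 10 both calls were lost, leaving 1 redox partner higher, and the call of Por was also lost without knockout library 4 or knockout library 5. With acinar level as covariate Por and Pgrmc1 were lost too, while Cyb5b and Cyb5r3 passed. The mitochondrial partners Fdx1 (log2 fold change -0.02, adjusted p = 0.928) and Fdxr (-0.20, adjusted p = 0.303) did not pass.

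Of the 20 tested regulators that sense foreign compounds and lipids, 1 was higher, 5 were lower and 14 did not pass (median log2 fold change -0.19). Over all genes tested, 11.8% were higher and 12.6% lower. The regulator that was higher was Nr1i2, the pregnane X receptor, which induces Cyp3a and Cyp2b genes in liver. Its counts were 161, 125 and 141 in knockout libraries 4, 5 and 6, against 36, 30 and 27 counts in control libraries 7, 10 and 16 (log2 fold change 2.51, SE 0.20, adjusted p = 8.59e-05). Every knockout library was above every control library, while the Cyp3a and Cyp2b genes, apart from Cyp3a13, had at most 1 count in a library: Cyp3a11, a known target in liver, had 0 counts in all libraries and Cyp2b10 had 1 count in all. The bile acid receptor Nr1h4 had 67, 87 and 64 counts in the knockout, against 217, 254 and 144 counts in the control (log2 fold change -1.16, SE 0.17, adjusted p = 0.00211). The oxysterol receptor Nr1h3 (log2 fold change -0.91, SE 0.20), Pparg (-1.22, SE 0.30), Arnt2 (-0.56, SE 0.09) and Ppard (-0.34, SE 0.08) were lower too. Ppara (-0.80, adjusted p = 0.149) and Ahr (0.33, adjusted p = 0.149) did not pass. Without control library 7, 3 regulators were lower, the calls of Pparg and Ppard being lost. The call of Pparg was also lost without control library 16 (adjusted p = 0.0564) and that of Ppard without knockout library 6 (adjusted p = 0.052). With acinar level as covariate 0 regulators were lower and 2 were higher, namely Nr1i2 and another that was not called without the covariate.

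**Figure D5:**
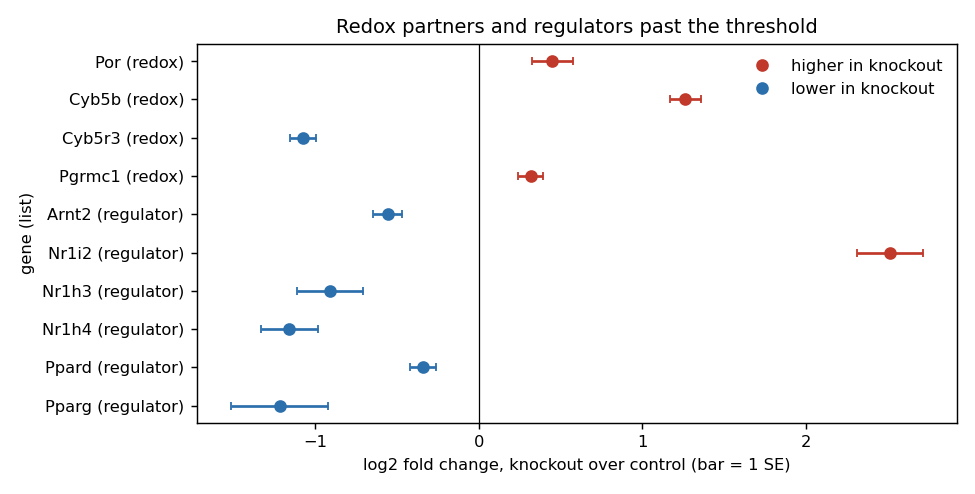
Log2 fold change of knockout over control (x axis, bar = 1 SE) for the 4 redox partners and 6 regulators that passed an adjusted p of 0.05 (y axis, with the list in brackets). Nr1i2 and Cyb5b lie farthest to the right, at 2.51 and 1.26, and Pparg, at -1.22, lies farthest to the left.

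Heme supply and breakdown had 2 genes higher and 1 lower among 13 tested (median log2 fold change 0.17). This share of calls was close to the 24.4% of all genes tested. Hmox1, the inducible heme oxygenase, had 37, 32 and 40 counts in the knockout, against 149, 147 and 82 counts in the control (log2 fold change -1.44, SE 0.23, adjusted p = 0.00284), with no overlap in CPM. Blvra, a biliverdin reductase gene, was higher (log2 fold change 0.48, SE 0.11, adjusted p = 0.0152), though the call was lost without knockout library 5 or control library 10. With acinar level as covariate 0 genes of this list were higher and 0 lower, Hmox1 being at -1.11 (adjusted p = 0.0837). Alas1, the first enzyme of heme synthesis, did not pass (0.17, adjusted p = 0.205).

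Of 9 tested eicosanoid genes, 2 were higher and 2 lower (median log2 fold change 0.06), beside 11.8% and 12.6% of all genes. Ptges, a prostaglandin E synthase, had 24.4 ± 5.04 CPM in knockout islets and 13.9 ± 2.82 CPM in control islets (SD, n = 3 each), a log2 difference of 0.81 (SE 0.20) with an adjusted p of 0.021, and the arachidonate ligase Acsl4 was higher by 0.31 (adjusted p = 0.0231). The cyclooxygenase gene Ptgs1 (-0.72, SE 0.20, adjusted p = 0.032) and Ephx1, an epoxide hydrolase that acts on P450 products (-0.35, SE 0.09, adjusted p = 0.0233), were lower. Each of these 4 calls was lost without at least 1 library: Ptges without knockout library 6, Acsl4 without knockout library 4 or without control library 10 or 16, Ptgs1 without knockout library 5 or 6, or without control library 10 or 16, and Ephx1 without knockout library 4 or 5 or control library 7. Ephx1 was also lost with DESeq2 (adjusted p = 0.0557), and with acinar level as covariate only Ptgs1 of the 4 passed. Of 16 tested steroid and sterol genes 1 was higher, the cholesterol synthesis gene Dhcr7 (0.42, SE 0.09, adjusted p = 0.0105), and 1 lower, the sulfotransferase Sult1a1 (-1.11, SE 0.24, adjusted p = 0.0132), which was lost without knockout library 5 or 6 (median log2 fold change -0.0017). Dhcr7 was lost with acinar level as covariate (0.40, adjusted p = 0.118), while Sult1a1 passed there.

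Some markers of islet and other pancreas cells also differed between the genotypes. The counts of calls below stand beside 11.8% of all genes called higher and 12.6% called lower. Islet hormone genes were abundant in all libraries: Ins2 had 1309681 to 1857945 counts in the knockout and 1702078 to 2165334 counts in the control. Of 5 beta cell markers 1 was higher and 1, Ins1, was lower (log2 fold change -3.50, SE 0.25, adjusted p = 1.27e-04). Of 8 duct markers 1 was higher and 4 were lower. Of 10 endothelial markers 9 were lower in the knockout, and their summed level was 653 to 771 CPM in knockout and 1035 to 1040 CPM in control libraries. Of 6 mast cell markers Kit, which other cells of the pancreas also express, was lower (165, 135 and 124 counts in knockout libraries 4, 5 and 6, against 300, 545 and 247 counts in control libraries 7, 10 and 16, adjusted p = 0.0101), and the other 5 had at most 2 counts in a library. Of 15 acinar markers 2 were lower and 13 did not pass, but their median log2 fold change was -1.80. Their summed level was 4571 to 13202 CPM in knockout and 12577 to 44973 CPM in control libraries. Of 9 stellate and fibroblast markers 4 were lower (summed level 644 to 850 CPM in knockout and 921 to 1260 CPM in control libraries). Adipocyte markers summed to no more than 0.245 CPM in a knockout library and 0.548 CPM in a control library. Of 3 tested hepatocyte markers 2 did not pass and Alb was lower (20, 24 and 26 counts in the knockout, against 59, 78 and 55 counts in the control, adjusted p = 0.0178). Of 3 alpha cell markers 0 were called, with Gcg at -0.45 (adjusted p = 0.0663). Of 2 delta cell markers Hhex was lower (-0.33, adjusted p = 0.04). The PP cell marker Ppy did not pass, and of 4 Schwann cell markers 1 was higher.

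With acinar level as covariate, Cyp4f39 (log2 fold change -3.20), Cyp4v3 (-0.99) and Cyp2j6 (0.67) passed (adjusted p = 0.00277, 0.00293 and 0.0253 in that order), while Cyp2d22 (-0.51, adjusted p = 0.101) and Cyp2u1 (0.82, adjusted p = 0.132) did not. Of all 14770 genes, 1630 were called in that fit, against 3600 without a covariate. The endothelial level parted the genotypes completely. As a covariate it left 40 of the 14770 genes called, and Neurod1 itself had an adjusted p of 0.0579 there, so that level and the genotype cannot be told apart in these libraries.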

How the data were processed

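RNA of isolated islets was sequenced as single-end reads of 100 bases, per the labels' protocols. The submitters' processing notes name bcl2fastq 1.8.4, TopHat2 2.1.0, Cufflinks 2.0.2, DESeq and build mm9; the sources used here do not give the counter, the annotation or the strand setting. Each library has a deposited file of whole-number read counts by gene. The authors' own comparison is deposited with mean normalised signal, fold ratio, log2 fold change, p-value and adjusted p-value.

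Counts were tested with edgeR 4.0.16 (R 4.3.3): genes kept by filterByExpr (minimum count 10, minimum total 15), TMM factors (0.988 to 1.02), robust quasi-likelihood test, Benjamini-Hochberg adjustment over 14770 genes, threshold 0.05. The test was tried on simulated data first. CPM is counts per 1e+06 after TMM scaling. Alternatives were DESeq2 1.42.0, limma-voom (limma 3.58.1), other scaling and filters, no robust estimation, marker levels as covariates, and leaving out each library. The design was knockout against control with no block. Named genes were all P450 genes past the threshold or averaging at least 1 CPM, the largest difference that did not pass, the most abundant detected member of each family, and up to 6 called genes of each neighbour list by smallest p. Other genes named (the remaining untested P450 genes, Cyp4x1, Cyp2r1, flanking genes and uncalled partners) were added for role or position after their values were seen. The members and all lists were chosen with earlier results of these data known. A called gene of the heme list is counted but not reported here.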

Additional observations from a re-analysis of the deposited data

How the results depend on the processing

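Of 343 pairs of a tested P450 gene and an alternative, over 15 alternatives, 311 kept their direction and side of the threshold, 11 lost the threshold, 3 passed it only there and 18 changed sign. Cyp4f39, Cyp4v3 and Cyp2j6 passed in each alternative except the endothelial covariate. The number of P450 genes higher was 1 with the acinar covariate, 0 with the endothelial covariate and 1 to 2 without 1 library, and the number lower was 0 with the endothelial covariate. Of the partners, regulators and pathway neighbours, 3 were higher and 3 lower with the acinar covariate, and 0 and 0 with the endothelial covariate. Without 1 library 4 to 8 of them were higher (4 without control library 10) and 7 to 10 were lower. Over all 14770 genes, 1630 were called with the acinar covariate and 40 with the endothelial covariate, against 3600 without a covariate. The endothelial level cannot be told apart from the genotype, and the cause of the losses with the acinar level was not tested.

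Changes of sign among P450 genes were in genes with no call. With the acinar covariate the log2 fold change was -0.55 for Cyp17a1, -0.47 for Cyp2t4, 0.092 for Cyp39a1, 0.058 for Cyp46a1 and 0.086 for Cyp4f13. With the endothelial covariate it was -0.35 for Cyp20a1, 0.27 for Cyp2j9 and -0.36 for Cyp7b1. With no filter it was 0.015 for Cyp4f13. Without 1 library it ran over -0.19 to 0.71 for Cyp17a1, -0.57 to 0.30 for Cyp1b1, -0.066 to 0.53 for Cyp2t4, -0.72 to 0.057 for Cyp46a1, -0.062 to 0.061 for Cyp4f13 and -0.27 to 0.0026 for Cyp4f16. Among the neighbour genes, Pparg and Ptgs1, both called lower, changed sign with the endothelial covariate, to 0.36 for Pparg and 0.59 for Ptgs1. The cause of these changes was not tested.

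No paired analysis was possible because the knockout and control libraries share no replicate number. Depth limits the 66 untested P450 genes: a count of 0 allows a level of up to 3 counts, or 0.147 to 0.241 CPM by library. A single count lies below that limit, which covers counting error only. These 66 genes were not checked for windows shared with near copies, so reads lost between near copies are not covered by it.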
